A study of Mus musculus with 11 samples.

Results

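The genes described here are 45 genes of DNA replication and S phase, followed over 6 sorted populations on the path from the blood stem cell to the early T cell in the mouse. They were chosen by symbol, from a list of licensing, helicase, polymerase, clamp, nucleotide supply, chromatin assembly and fork genes. Each gene was read from a probe set annotated to that symbol alone, the one with the highest mean where there were several. All 45 were found among the 19938 genes so measured.

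Total RNA from C57BL/6J mice was hybridised to 11 Affymetrix arrays, and the labels name no treatment or mutation in any group. Bone marrow gave 3 populations with 2 arrays each: the stem cells (HSC), the LMPP, which are lymphoid-primed multipotent progenitors, and the CLP, which are common lymphoid progenitors. The other 3 are the early thymic precursors, or ETP (2 arrays), and the double negative stages DN2 (1 array) and DN3 (2 arrays). Their tissue label and the design text say thymus, although their descriptions name bone marrow. The sources used here give neither the age of the mice nor the sort gates, and do not say whether animals were pooled. Nothing says that the 2 arrays of a population came from separate animals, so p-values measure the spread between these arrays, which may be technical. DN2 has no replicate, and its variation was taken from the other populations.

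A chromosome is copied once per cycle. In G1 the origin recognition complex, Cdc6 and Cdt1 load the Mcm2 to Mcm7 ring on DNA; in S phase Cdc45 and the GINS proteins turn the ring into an active helicase, and the primase, the polymerases and the PCNA clamp then copy both strands. Many of these genes are transcribed under E2F factors as cells pass from G1 into S phase, so their transcripts are often read as a sign of proliferating cells. Stem cells of adult marrow are known for dividing rarely, and thymocytes divide between the ETP and DN3 stages. In these bulk samples fewer cells in S phase and less transcript per cell cannot be told apart.

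The promoters show how far the members share the elements through which such genes are commonly controlled. The RefSeq table (GRCm38.p6) held the 250 bases upstream of the start of 36 of the 45 genes, and no entry was held for Pole, Gins1, Gmnn, Rfc2, Tipin, Ccne2, Gins2, Prim2 and Mcm4. An E2F-type motif, spelled TTTCCCGC, TTTCGCGC, TTTGCCGC or TTTGGCGC and searched on both strands, was present in 9 of the 36 (25.0%), against 2.16% of the 27025 genes with an entry. The 9 were Orc1, Cdc6, Mcm5, Mcm6, Mcm7, Pola1, Rfc3, Uhrf1 and Dtl. The CCAAT box, searched as CCAAT or ATTGG, was present in 23 of the 36 (63.9%), against 37.5% of all genes, and no match of one motif overlapped a match of the other. A match is a string of letters and not evidence of binding.

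A few of these promoters are printed, 5′ to 3′ on the gene's strand, with motif matches in capitals: 4 of genes that passed a test below, and 2 of the Mcm helicase, which hold both motifs.
Rrm2: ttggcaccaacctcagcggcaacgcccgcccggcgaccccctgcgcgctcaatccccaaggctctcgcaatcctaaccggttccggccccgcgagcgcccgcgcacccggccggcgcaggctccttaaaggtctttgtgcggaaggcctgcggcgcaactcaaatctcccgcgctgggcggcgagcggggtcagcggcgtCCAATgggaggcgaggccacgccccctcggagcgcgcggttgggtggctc
Cdc6: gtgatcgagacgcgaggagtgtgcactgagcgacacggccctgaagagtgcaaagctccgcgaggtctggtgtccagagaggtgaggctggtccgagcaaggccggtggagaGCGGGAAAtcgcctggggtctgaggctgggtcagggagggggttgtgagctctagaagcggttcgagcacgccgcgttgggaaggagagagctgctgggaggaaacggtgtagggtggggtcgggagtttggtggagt
Tyms: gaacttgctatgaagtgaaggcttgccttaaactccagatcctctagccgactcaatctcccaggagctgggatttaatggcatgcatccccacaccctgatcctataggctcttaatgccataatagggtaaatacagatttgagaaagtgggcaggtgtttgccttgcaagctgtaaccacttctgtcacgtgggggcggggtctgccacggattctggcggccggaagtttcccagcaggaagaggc
Ccne1: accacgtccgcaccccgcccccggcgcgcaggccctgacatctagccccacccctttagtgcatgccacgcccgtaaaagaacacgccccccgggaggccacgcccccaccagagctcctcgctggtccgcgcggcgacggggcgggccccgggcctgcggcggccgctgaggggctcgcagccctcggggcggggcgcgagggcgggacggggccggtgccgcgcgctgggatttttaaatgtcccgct
Mcm5: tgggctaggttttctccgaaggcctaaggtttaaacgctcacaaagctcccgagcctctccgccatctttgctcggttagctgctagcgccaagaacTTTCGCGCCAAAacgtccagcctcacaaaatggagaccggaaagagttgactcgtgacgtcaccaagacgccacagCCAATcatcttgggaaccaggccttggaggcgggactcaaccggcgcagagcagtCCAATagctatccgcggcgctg
Mcm6: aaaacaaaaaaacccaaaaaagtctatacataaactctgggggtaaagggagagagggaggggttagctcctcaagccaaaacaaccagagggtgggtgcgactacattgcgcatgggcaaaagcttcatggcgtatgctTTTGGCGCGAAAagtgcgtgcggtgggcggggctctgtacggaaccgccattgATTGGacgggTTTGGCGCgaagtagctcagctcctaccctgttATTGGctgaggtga
They lie at chr12:24708004-24708253 on the plus strand (Rrm2), chr11:98907901-98908150 on the plus strand (Cdc6), chr5:30073626-30073875 on the minus strand (Tyms), chr7:38107491-38107740 on the minus strand (Ccne1), chr8:75109259-75109508 on the plus strand (Mcm5) and chr1:128359706-128359955 on the minus strand (Mcm6). In Rrm2 the CCAAT box lies 50 to 46 bases upstream of the start and no E2F-type match was found. Cdc6 has its E2F-type match at 138 to 131 bases. Mcm5 carries a pair of overlapping E2F-type matches between 153 and 142 bases and CCAAT boxes at 77 to 73 and 22 to 18 bases. Mcm6 has overlapping matches between 110 and 99 bases, another at 47 to 40 bases, and reversed CCAAT boxes at 57 to 53 and 14 to 10 bases. Neither motif was found in these windows of Tyms and Ccne1.

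All values are log2 intensities normalised by RMA, on which 1 unit is a 2-fold change. Array medians over all 35556 probe sets lay between 6.01 and 6.12, and precision is limited by how few arrays there are. Intensities of different probe sets are not comparable as levels, so each gene is compared with itself across populations. Against population markers the labels held in most cases: 3 of 4 measured HSC markers, 2 of 3 LMPP markers, 3 of 4 CLP markers and 6 of 6 DN2 and DN3 markers were highest in their own populations. None of the 4 ETP markers (Kit, Hes1, Notch1, Cd44) was highest in ETP. Elane, a neutrophil granule protease, stood at 8.60 in HSC and 6.48 in ETP, against 5.04 to 5.20 in the other populations. Klf1, a red cell transcription factor, averaged 6.44 in HSC (5.999 and 6.88 on its arrays), against 5.05 to 5.73 in the other populations. Of 4 listed erythroid markers it was the only 1 measured. Epcam, an epithelial marker, stood at 7.21 in DN3, against 4.99 to 5.36 elsewhere. The rest of its list of stroma markers did not rise in DN3. Col1a1 (7.03 to 7.11) and Col1a2 (6.56 to 6.72) varied little, and Pecam1 was highest in CLP (9.19, against 8.32 in DN3). Of the mature T cell markers, Cd8b1 stood at 6.38 in DN3, against 5.29 to 5.44 elsewhere. Cd4 (5.09 to 5.92) and Cd8a (5.47 to 5.66) were not highest in DN3. Of the B cell markers, Cd79b stood at 8.45 in CLP, against 7.73 to 7.88 elsewhere, and Ms4a1 at 3.82 to 4.30 throughout. The part of such cells in the results below was not tested. The markers Ngp, Ltf, C1qa, C1qb and Adgre1 stayed between 4.23 and 6.01 in every population.

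Most members were at their highest in the thymic DN2 or DN3 cells and at their lowest in ETP, HSC or LMPP. The population mean was highest in DN2 for 26 of the 45 genes and in DN3 for 13, leaving HSC with 4, LMPP and CLP with 1 each and ETP with 0. Of all genes, 13.5% were highest in DN2 and 17.4% in DN3. The shares of all genes were 16.3% for HSC, 22.9% for LMPP, 17.9% for CLP and 12.0% for ETP. The lowest mean was in ETP for 16 members, in HSC and LMPP for 12 each, in CLP for 4, in DN3 for 1 and in DN2 for 0. The shares of all genes lowest in each population were not computed, so these counts have no background beside them. The differences were small. The range of the 6 means had a median of 0.48 over the members, beside 0.34 over all genes. It ran from 0.18 for Pcna (1.13-fold), the sliding clamp, to 1.24 for Cdc6 (2.37-fold), the licensing ATPase. Only Cdc6 and Uhrf1 (1.23) ranged over more than 1 unit, and 25 members ranged over less than 0.5.

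**Figure D1:**
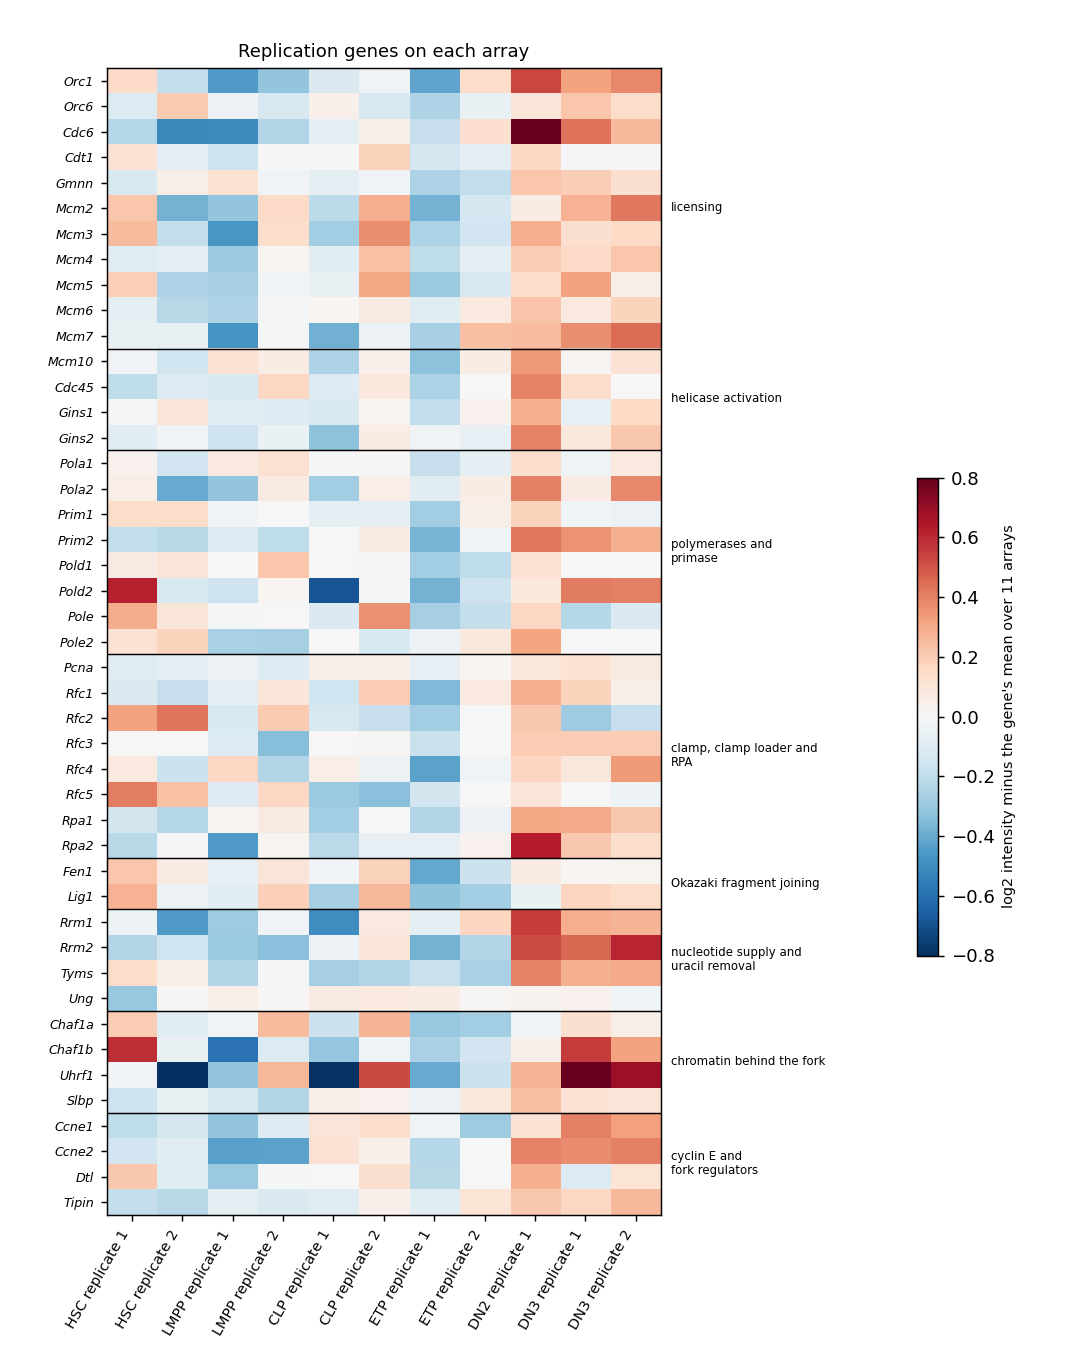
Log2 intensity of the 45 genes (rows, grouped by role) on the 11 arrays (columns, HSC to DN3), each row centred on its mean over the arrays; colour gives the difference from that mean in log2 units. The DN2 and DN3 columns lie mostly above the row mean, with array medians of 0.22, 0.15 and 0.16, and ETP replicate 1 lies lowest with a median of -0.24.

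The order of single arrays showed the same lean. The DN2 array stood above all 10 other arrays in 20 of the 45 genes, beside 5.8% of all genes. The DN2 and both DN3 arrays together stood above all 8 others in 16 members, beside 4.05% of all genes. These 16 were Orc1, Cdc6, Gmnn, Mcm7, Gins2, Prim2, Pcna, Rfc3, Rpa1, Rpa2, Rrm1, Rrm2, Tyms, Slbp, Ccne2 and Tipin. Both ETP arrays stood below all 9 others in 5 members, namely Gmnn, Pold1, Fen1, Lig1 and Chaf1a, beside 1.9% of all genes. With quantiles normalised once more the 16 became 12 and the 5 became 10.

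Among the licensing factors, Cdc6, which loads the Mcm ring together with Cdt1, had the widest range of the 45 genes. It read 7.79 and 7.50 in HSC, 7.52 and 7.78 in LMPP, 7.94 and 8.06 in CLP, 7.83 and 8.15 in ETP, 8.89 in DN2, and 8.45 and 8.27 in DN3. The 3 DN2 and DN3 values exceed the 8 others, and the HSC and LMPP arrays overlap. Orc1, the ATPase subunit of the origin recognition complex, read 7.26 and 6.91 in HSC, 6.65 and 6.79 in LMPP, 6.99 and 7.07 in CLP, 6.68 and 7.25 in ETP, 7.64 in DN2, and 7.43 and 7.49 in DN3. Its ETP arrays lie 0.57 apart, close to the difference of the DN2 array from ETP. Orc6, another subunit of that complex, was highest in DN3 (10.37) and lowest in ETP (10.04). Cdt1, the partner of Cdc6, had a mean near the array medians (6.12 to 6.40 over the populations) and a range of 0.28. Gmnn, which binds and inhibits Cdt1, read 9.19 and 9.37 in HSC, 9.44 and 9.29 in LMPP, 9.24 and 9.29 in CLP, 9.07 and 9.13 in ETP, 9.54 in DN2, and 9.52 and 9.44 in DN3. Its ETP arrays are the lowest of all.

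The 6 subunits of the Mcm ring had ranges from 0.34 (Mcm4) to 0.65 (Mcm7), beside medians of 0.48 over the members and 0.34 over all genes. Mcm2 read 8.80 and 8.20 in HSC, 8.26 and 8.73 in LMPP, 8.37 and 8.87 in CLP, 8.20 and 8.43 in ETP, 8.64 in DN2, and 8.85 and 8.999 in DN3. Its HSC arrays lie as far apart (0.60) as its highest and lowest means (0.61). Mcm7 read 8.68 and 8.68 in HSC, 8.27 and 8.72 in LMPP, 8.35 and 8.69 in CLP, 8.47 and 8.98 in ETP, 8.99 in DN2, and 9.11 and 9.19 in DN3. It was one of the 16 genes with DN2 and DN3 above all the rest. Mcm3 and Mcm5 had gaps between the arrays of a population (up to 0.65 and 0.44) that exceed their ranges of 0.50 and 0.40. Mcm6 was lowest in HSC (10.56) and highest in DN2 (10.93).

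The 4 genes of helicase activation were all highest in DN2. Mcm10, which helps to start the helicase, averaged 8.16 there and 7.68 to 7.91 elsewhere. Cdc45, a helicase subunit, read 8.62 and 8.72 in HSC, 8.70 and 8.99 in LMPP, 8.72 and 8.91 in CLP, 8.57 and 8.82 in ETP, 9.22 in DN2, and 8.97 and 8.83 in DN3. Its DN3 arrays overlap those of LMPP and CLP. Gins1 and Gins2, 2 of the GINS subunits, stood at 9.89 and 9.49 in DN2, against 9.53 and 9.05 in ETP.

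The polymerase genes did not follow one pattern. Prim2, the regulatory subunit of the primase, read 7.98 and 7.96 in HSC, 8.08 and 7.98 in LMPP, 8.19 and 8.24 in CLP, 7.81 and 8.15 in ETP, 8.60 in DN2, and 8.54 and 8.46 in DN3. DN2 and DN3 lie above all other arrays. Prim1, the catalytic subunit of the same enzyme, was close in HSC (10.65) and DN2 (10.69) and stood at 10.39 to 10.49 elsewhere. Pole, the catalytic subunit of polymerase epsilon, was highest in HSC (7.70) and DN2 (7.67) and lowest in ETP (7.28) and DN3 (7.34). Its partner Pole2 was lowest in LMPP (8.68) and highest in DN2 (9.26). Pold2, a subunit of polymerase delta, read 8.65 and 7.90 in HSC, 7.86 and 8.04 in LMPP, 7.33 and 8.01 in CLP, 7.64 and 7.86 in ETP, 8.11 in DN2, and 8.44 and 8.43 in DN3. The gap of 0.74 between its HSC arrays is nearly as wide as its range of 0.76. The catalytic subunit Pold1 read 7.28 and 7.36 in ETP, below every other array (7.56 to 7.78). Pola1 and Pola2, of polymerase alpha, were both highest in DN2, with ranges of 0.27 and 0.58.

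The clamp loader subunits differed in where they were highest. Rfc2 read 8.95 and 9.05 in HSC, 8.50 and 8.83 in LMPP, 8.49 and 8.44 in CLP, 8.35 and 8.62 in ETP, 8.84 in DN2, and 8.34 and 8.44 in DN3. Rfc5 read 9.24 and 9.06 in HSC, 8.72 and 8.996 in LMPP, 8.53 and 8.49 in CLP, 8.68 and 8.83 in ETP, 8.93 in DN2, and 8.83 and 8.79 in DN3. For both, the HSC arrays exceed all 9 others; no other member did so, and 2 of 45 is near the 4.89% of all genes that did. Rfc3 instead read 9.62 in DN2 and 9.62 and 9.63 in DN3, above the 9.08 to 9.43 of all the others. Rfc4 was highest in DN3 (9.43) and Rfc1, the large subunit, in DN2 (9.83). Rpa1 and Rpa2, which coat single-stranded DNA, were highest in DN2 (8.40 and 8.94), and Rpa2 ranged over 0.84. Pcna lay between 12.26 and 12.44, and its 2 probe sets gave the same values to within 0.0011. Fen1, the flap nuclease, and Lig1, the ligase of Okazaki fragments, had their lowest means in ETP, at 7.40 and 8.48.

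Nucleotide supply held Rrm2, the one member called in 3 comparisons below. Rrm2, the small subunit of ribonucleotide reductase that is made in S phase, read 8.92 and 8.99 in HSC, 8.85 and 8.81 in LMPP, 9.10 and 9.25 in CLP, 8.77 and 8.92 in ETP, 9.67 in DN2, and 9.61 and 9.76 in DN3. The widest gap between its replicates was 0.15, against a range of 0.85. DN2 and DN3 do not differ beyond that gap, and neither do HSC, LMPP and ETP, with CLP between these sets. Rrm1, the large subunit, read 10.14 and 9.73 in HSC, 9.89 and 10.15 in LMPP, 9.68 and 10.26 in CLP, 10.10 and 10.35 in ETP, 10.73 in DN2, and 10.47 and 10.45 in DN3. Tyms, which makes thymidylate, read 9.30 and 9.20 in HSC, 8.92 and 9.14 in LMPP, 8.89 and 8.92 in CLP, 8.98 and 8.89 in ETP, 9.55 in DN2, and 9.44 and 9.46 in DN3. Ung, which removes uracil from DNA, stayed between 6.06 and 6.28, near the array medians.

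Among genes that restore chromatin behind the fork, Uhrf1, which guides maintenance methylation to newly copied DNA, had both a wide range and the widest replicate gap. It read 9.50 and 8.62 in HSC, 9.20 and 9.79 in LMPP, 8.73 and 10.05 in CLP, 9.11 and 9.35 in ETP, 9.79 in DN2, and 10.37 and 10.20 in DN3. The DN3 arrays are the highest, and the CLP arrays span more (1.32) than the population means do (1.23). Chaf1b, a subunit of chromatin assembly factor 1, read 8.21 and 7.56 in HSC, 7.02 and 7.51 in LMPP, 7.31 and 7.58 in CLP, 7.35 and 7.46 in ETP, 7.65 in DN2, and 8.17 and 7.94 in DN3. Its partner Chaf1a was lowest in ETP (8.46) and stood at 8.71 to 8.86 elsewhere. Slbp, which binds the end of histone mRNA, was highest in DN2 (9.69); its second probe set read up to 0.89 lower.

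Both E cyclins, which activate Cdk2 at the entry into S phase, were high in DN3. Ccne2 read 8.95 and 9.01 in HSC, 8.67 and 8.68 in LMPP, 9.22 and 9.14 in CLP, 8.88 and 9.10 in ETP, 9.51 in DN2, and 9.48 and 9.51 in DN3. Ccne1 read 7.20 and 7.27 in HSC, 7.08 and 7.30 in LMPP, 7.50 and 7.54 in CLP, 7.37 and 7.12 in ETP, 7.52 in DN2, and 7.80 and 7.73 in DN3. Both had their lowest mean in LMPP, and both means were higher in CLP than in HSC. Dtl, the substrate receptor of a ligase that destroys Cdt1, was highest in DN2 (8.91). Tipin, of the fork protection complex, read 10.75 and 10.72 in HSC, below every other array, the only member of which this holds, beside 3.53% of all genes. It averaged 11.15 in both DN2 and DN3.

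**Figure D2:**
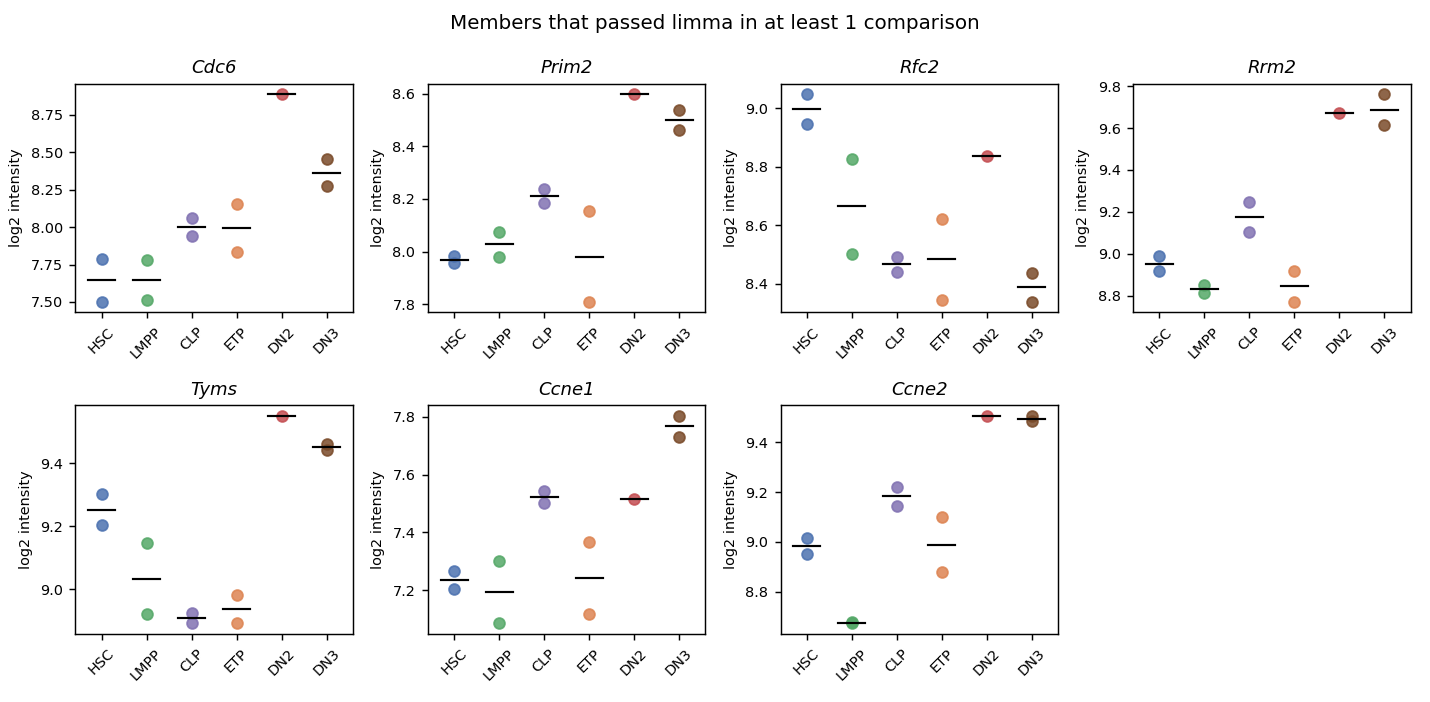
Log2 intensity of the members that passed a test, by population from HSC to DN3; points are arrays and bars are means. Rrm2 lies at 9.61 to 9.76 in DN2 and DN3 and at 8.77 to 9.25 in the other populations, whereas Rfc2 is highest in HSC at 8.95 and 9.05.

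Differences between populations were tested with limma, in a fit of 6 group means over all 11 arrays. A gene was called at a Benjamini-Hochberg adjusted p under 0.05 over all 19938 genes. Counts of members with an unadjusted p under 0.05 are also given below. The share of all genes with such a p was not computed, so these counts are not read as a result about the members. Over the 6 populations together, limma's F test called 5 members, namely Rrm2 (adjusted p = 0.001569), Ccne2 (0.005042), Cdc6 (0.006717), Tyms (0.02053) and Prim2 (0.0377). That is 5 of 45 beside 12.2% of all genes, a share near the background. The number was 3 without CLP replicate 1 or either DN3 array.

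In the first marrow step limma called 0 members in LMPP against HSC, beside 2.94% of all genes (1.23% higher and 1.71% lower), and 5 members had an unadjusted p under 0.05. The median member differed by -0.07, beside 0.03 over all genes, and the sign turned to 0.01 without LMPP replicate 1. Uhrf1 (9.49 in LMPP, 9.06 in HSC; difference 0.44) and Rpa1 (8.13 in LMPP, 7.90 in HSC; 0.24) lay furthest up, and Chaf1b (7.27 in LMPP, 7.88 in HSC; -0.62, adjusted p = 0.2332) and Pole2 (8.68 in LMPP, 9.09 in HSC; -0.41, adjusted p = 0.08906) furthest down. The arrays of both populations did not overlap in 17 members, 5 higher in LMPP (beside 21.3% of all genes) and 12 lower (beside 17%). For the Mcm genes the 95% intervals of the difference included 0, from -0.52 to 0.51 for Mcm2 and from -0.26 to 0.30 for Mcm6.

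In CLP against LMPP limma again called 0 members, beside 1.14% of all genes (0.602% higher and 0.542% lower), and 5 had an unadjusted p under 0.05. The arrays did not overlap in 13 members higher in CLP, beside 14.5% of all genes, and in 6 lower, beside 19.1%. Ccne2 (9.18 in CLP, 8.68 in LMPP; 0.51, adjusted p = 0.08069) and Cdc6 (8.0 in CLP, 7.65 in LMPP; 0.35) lay furthest up, and Rfc5 (8.51 in CLP, 8.86 in LMPP; -0.35) and Pold2 (7.67 in CLP, 7.95 in LMPP; -0.28) furthest down. The median difference of 0.05 turned to -0.04 without CLP replicate 2 and was 0.18 without CLP replicate 1.

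Entry into the thymus gave 0 called members by limma too, in ETP against LMPP and in ETP against CLP. Against LMPP, 2.31% of all genes were called (1.44% higher and 0.868% lower), and 6 members had an unadjusted p under 0.05. Against CLP, 2.52% of all genes were called (1.41% higher and 1.1% lower), and 3 members had such a p. Against LMPP, Cdc6 (7.99 in ETP, 7.65 in LMPP; 0.34) and Ccne2 (8.99 in ETP, 8.68 in LMPP; 0.31) lay furthest up, and Chaf1a (8.46 in ETP, 8.86 in LMPP; -0.40) and Lig1 (8.48 in ETP, 8.83 in LMPP; -0.35) furthest down. The arrays did not overlap in 4 members higher in ETP than in LMPP, beside 18.4% of all genes, and in 8 lower, beside 24.9%. Against CLP the ETP mean was lower in 34 of the 45 genes and higher in 11, beside 47.82% of all genes higher. The median was -0.09, beside -0.01 over all genes. Fen1 (7.40 in ETP, 7.76 in CLP; -0.37) and Pole (7.28 in ETP, 7.64 in CLP; -0.36) lay furthest down, and Rrm1 (10.23 in ETP, 9.97 in CLP; 0.26) and Rfc5 (8.75 in ETP, 8.51 in CLP; 0.24) furthest up. The arrays did not overlap in 17 members lower in ETP, beside 19.6% of all genes, and in 2 higher, beside 18.9%. Leaving out ETP replicate 1 gave a median of -0.01, and leaving out ETP replicate 2 gave -0.19.

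In DN2 against ETP nearly the whole group lay on one side. The DN2 array stood above both ETP arrays in 44 of the 45 genes, beside 32.1% of all genes, and below both in 0, beside 34.3%. Ung was the exception (6.23 in DN2, 6.24 in ETP), but with quantiles normalised once more or arrays centred on their medians it too stood above both. The median difference was 0.36, beside -0.0023 over all genes, and every role had a positive median, from 0.25 for chromatin genes to 0.56 for nucleotide supply. Rrm2 was called: it stood at 9.67 in DN2, against 8.84 ± 0.104 in ETP (SD, n = 2), 1.78-fold higher by limma (difference 0.83, 95% interval 0.51 to 1.15, adjusted p = 0.02286). It was the only member called, beside 0.998% of all genes called (0.321% higher and 0.677% lower), and 14 members had an unadjusted p under 0.05. Without either ETP array the call was lost. Cdc6 stood at 8.89 in DN2, against 7.99 in ETP, and missed the threshold (0.90, adjusted p = 0.07243). Orc1 (0.67), Rpa2 (0.64), Prim2 (0.62) and Tyms (0.61) had the next largest differences and were not called. With 1 DN2 array the 95% interval of a member had a median of 0.37 to each side, about the size of the median difference. Leaving out ETP replicate 1 gave a median of 0.25, and leaving out ETP replicate 2 gave 0.47.

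In DN3 against DN2 most members read lower, and none was called. The DN3 mean was lower in 31 of the 45 genes and higher in 14, beside 49.85% of all genes higher. Both DN3 arrays lay below the DN2 array in 27 members (beside 35.1% of all genes) and above it in 9 (beside 36.3%). The median was -0.10, beside 0 over all genes. Between the 2 arrays of LMPP, CLP or ETP the members shifted together by more, with medians of 0.14 to 0.18. With 1 DN2 array, such a shift cannot be told apart from a difference between DN2 and DN3. Cdc6 (8.36 in DN3, 8.89 in DN2; -0.52, adjusted p = 0.3991) and Rfc2 (8.39 in DN3, 8.84 in DN2; -0.45) lay furthest down, and Uhrf1 (10.29 in DN3, 9.79 in DN2; 0.50) and Chaf1b (8.05 in DN3, 7.65 in DN2; 0.40) furthest up. Limma called 0 members, beside 1.8% of all genes (0.702% higher and 1.09% lower), and 4 had an unadjusted p under 0.05.

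**Figure D3:**
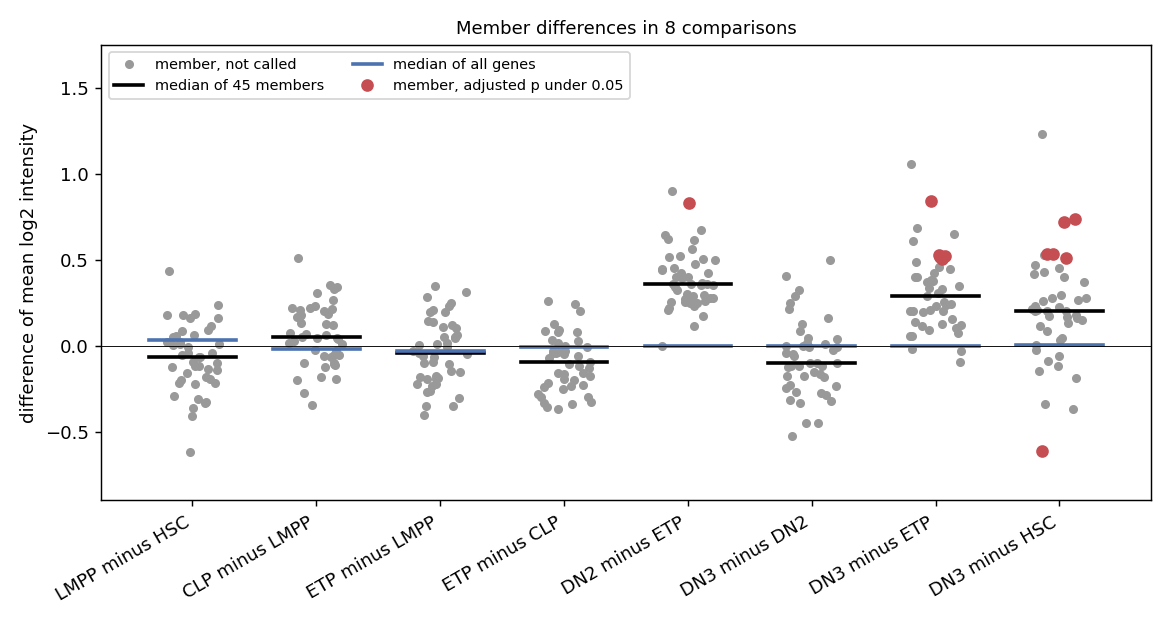
Difference in mean log2 intensity of each of the 45 genes in the 8 comparisons; points are genes (red where limma gave an adjusted p under 0.05), black bars are their medians and blue bars the medians of all genes. The points lie mostly above 0 in DN2 against ETP, DN3 against ETP and DN3 against HSC, with medians of 0.36, 0.29 and 0.20, and the red points number 1, 5 and 6.

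Over the whole thymic path, with 2 arrays on each side, 5 members were higher in DN3 than in ETP and 0 were lower, beside 2.68% of all genes called higher and 3.89% called lower (6.57% together). Rrm2 stood at 9.69 ± 0.106 in DN3, against 8.84 ± 0.104 in ETP (SD, n = 2 each; 1.79-fold by limma, difference 0.84, 95% interval 0.58 to 1.10, adjusted p = 0.00115). Ccne1 was 1.44-fold higher (limma adjusted p = 0.03338), Prim2 1.43-fold (0.03949), Tyms 1.43-fold (0.0247) and Ccne2 1.42-fold (0.0245). The DN3 arrays of all 5 genes exceed both ETP arrays. That held for 34 of the 45 members in all, beside 23.6% of all genes, and the reverse held for 0, beside 24.3%. The median difference was 0.29, beside -0.0029 over all genes. An unadjusted p under 0.05 was seen in 20 members, with no share of all genes computed. Uhrf1 had the largest difference (1.06, 95% interval 0.19 to 1.92) and was not called (adjusted p = 0.1826). Prim2 was the least stable of the 5, losing its call in 12 of 19 alternative settings. Without DN3 replicate 1 or without DN3 replicate 2 only 1 member was called, and without ETP replicate 1 only Rrm2 and Ccne1 were.

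Against HSC, DN3 had 5 members called higher and 1 lower, beside 4.17% and 5.43% of all genes (9.6% together). Rrm2 was 1.66-fold higher in DN3 (9.69 in DN3, 8.95 in HSC; limma adjusted p = 0.002113) and Cdc6 1.65-fold (8.36 in DN3, 7.65 in HSC; adjusted p = 0.01473). Ccne1, Prim2 and Ccne2 were 1.45-fold, 1.44-fold and 1.43-fold higher (limma adjusted p = 0.02317, 0.02637 and 0.01693). Rfc2 fell by 0.61 on the log2 scale, to 8.39 ± 0.069 in DN3, against 8.997 ± 0.074 in HSC (SD, n = 2 each; limma adjusted p = 0.02051). Tyms, called against ETP, stood at 9.45 in DN3 and 9.25 in HSC (adjusted p = 0.4303). Both comparisons use the same DN3 arrays. Uhrf1 again differed most (1.23, adjusted p = 0.08395) and was not called. The arrays did not overlap in 26 members higher in DN3 (beside 23.1% of all genes) and 7 lower (beside 22.4%), the 7 being Prim1, Pold1, Pole, Pole2, Rfc2, Rfc5 and Fen1. The count of 6 called was 2 without either HSC array and 1 without either DN3 array.

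The members also lay to one side together between the 2 arrays of a population. Replicate 2 of ETP read higher than replicate 1 in 41 of the 45 genes, with a median gap of 0.18, while 50.2% of all genes did so with a median of 0.001. In CLP 36 members and in LMPP 32 read higher in replicate 2, with medians of 0.14 and 0.18 beside -0.01 and -0.02 over all genes. In HSC 27 read higher in replicate 1 (median -0.08), although all genes had a median of 0.06. In DN3 22 read higher in replicate 2 and the median was 0. The shifts of LMPP, CLP and ETP are larger than the median differences of the marrow comparisons. These shifts also exceed in size the medians of ETP against LMPP (-0.04), ETP against CLP (-0.09) and DN3 against DN2 (-0.10). Single genes parted further: Uhrf1 by 1.32 in CLP and -0.88 in HSC, Pold2 by 0.68 in CLP and -0.74 in HSC, and Mcm3 by 0.65 in CLP and 0.61 in LMPP. In 8 of the 45 genes the widest replicate gap exceeded the range of the population means. The shifts were not particular to the members. Of 27 genes of G2 and mitosis, 23 read higher in replicate 2 of ETP, 22 in CLP and 21 in LMPP. In HSC 21 of these 27 read higher in replicate 1. In ETP, 30 of 38 other replication genes and all 15 measured ribosomal protein genes also read higher in replicate 2. The cause of these shifts was not tested.

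**Figure D4:**
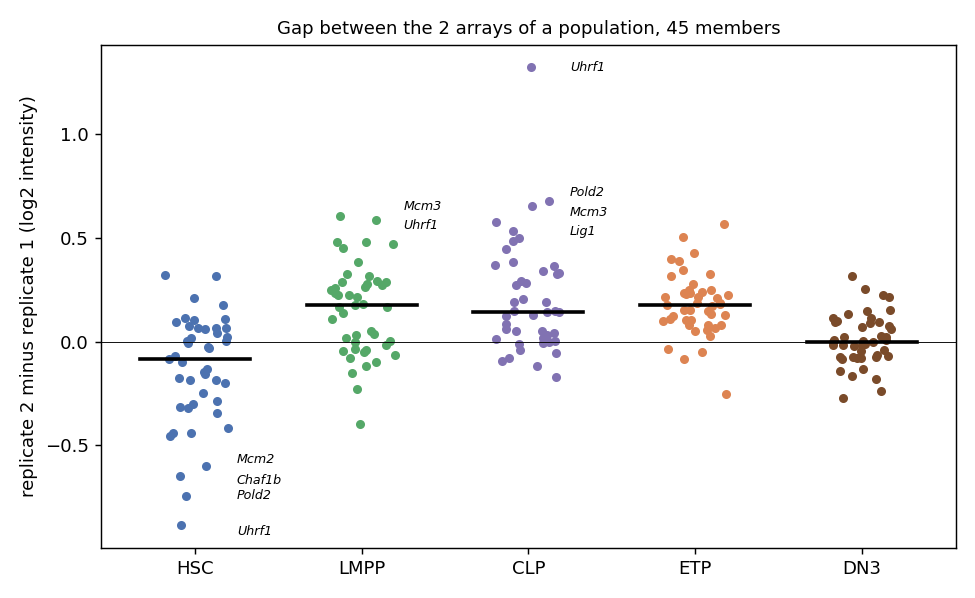
Replicate 2 minus replicate 1 in log2 intensity for each of the 45 genes in the 5 populations with 2 arrays; bars are medians. The medians are -0.08 in HSC, 0.18 in LMPP, 0.14 in CLP, 0.18 in ETP and 0 in DN3, with Uhrf1 furthest out in CLP and HSC.

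A further 40 replication genes outside the 45 (38 measured) leaned the same way. Their median difference was 0.27 in DN2 against ETP, 0.16 in DN3 against ETP and 0.17 in DN3 against HSC, beside medians of all genes within 0.0029 of 0. Dna2, a nuclease and helicase of Okazaki fragments, was 1.73-fold higher in DN2 than in ETP (limma adjusted p = 0.03825). Hells, a chromatin remodeller, was 1.503-fold higher in DN3 than in HSC (adjusted p = 0.00618). Pold4, the small subunit of polymerase delta, went the other way and stood at 7.0 in DN3, against 7.83 in ETP (adjusted p = 0.04395). Each was the only 1 of the 38 called in its comparison. All genes called were 0.998% in DN2 against ETP, 9.6% in DN3 against HSC and 6.57% in DN3 against ETP. Limma called 0 of the 38 in the marrow steps, in ETP against LMPP or CLP and in DN3 against DN2.

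Genes of G2 and mitosis, which act after S phase, had a different profile. Both LMPP arrays stood above all 9 others in 15 of 27 such genes and in 0 of the 45 replication genes, beside 3.63% of all genes. The counts were 9 and 0 with arrays centred on their medians, and 19 and 1 with quantiles normalised once more. In LMPP against HSC the median of the mitotic genes was 0.40 (replication genes -0.07). Limma called 4 of the 27 higher, beside 1.23% of all genes: Kif23 (2.28-fold), Cenpf, Prc1 and Nusap1. In CLP against LMPP their median was -0.41, with Cenpf and Ttk called lower, beside 0.542% of all genes. In ETP against LMPP it was -0.47, with 4 called lower (Cenpf, Mki67, Ccnb2 and Ttk), beside 0.868% of all genes. In DN2 and DN3 against ETP both groups leaned upwards, with medians of 0.30 and 0.22 for the mitotic genes and 0 called. In DN3 against HSC the mitotic median was 0.18 and only Kif23 was called (1.57-fold higher), beside 4.17% of all genes called higher. In ETP against CLP it was -0.05 and in DN3 against DN2 -0.08, with 0 called in both. The difference between the 2 lists was not tested. Ribosomal protein genes, 15 of 20 measured, had array medians within -0.03 and 0.07 and 0 called in the 8 comparisons.

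**Figure D5:**
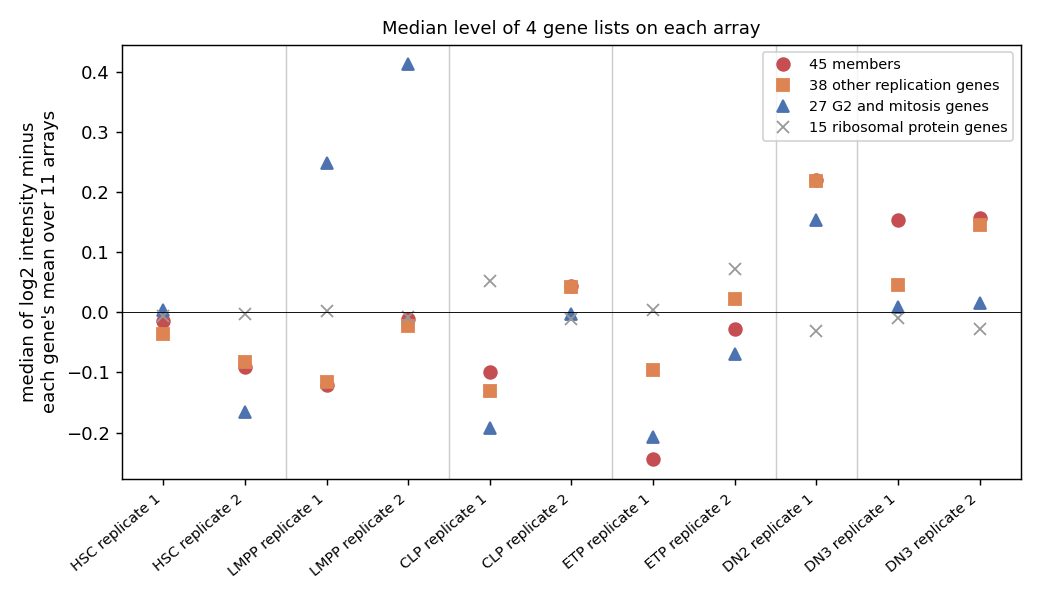
Median centred log2 intensity on each of the 11 arrays for the 45 replication genes, the G2 and mitosis genes, the other replication genes and the ribosomal protein genes, in the order HSC to DN3. Mitotic genes peak on the LMPP arrays (0.25 and 0.41), where the 45 replication genes read -0.12 and -0.01. The 45 genes peak on the DN2 array (0.22).

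The regulators of S phase entry were mostly not called by limma. Of 18 genes of the E2F and RB families 0 were called, except 2 lower in DN3 than in HSC. All genes called there were 9.6% (5.43% lower). E2f7, a repressor of the family, stood at 6.99 in DN3 and 7.61 in HSC (limma adjusted p = 0.0265). Rbl2, the pocket protein p130, stood at 7.62 in DN3 and 8.12 in HSC (limma adjusted p = 0.03322). Of 12 G1 cyclins and kinases, Ccnd1 (cyclin D1) was lower in DN2 (2.45-fold) and in DN3 (1.91-fold) than in ETP. It was also 1.80-fold lower in DN3 than in HSC. Ccnd3 (cyclin D3) was 1.46-fold higher in DN3 than in HSC. Mycn, a transcription factor that promotes growth and was kept in this list, was 2.07-fold higher in ETP than in CLP and 1.65-fold higher than in LMPP. In DN3 Mycn was lower than in ETP (1.84-fold), DN2 (1.81-fold) and HSC (1.475-fold). All genes called were 2.52% in ETP against CLP, 2.31% in ETP against LMPP and 0.998% in DN2 against ETP. In DN3 they were 6.57% against ETP, 1.8% against DN2 and 9.6% against HSC. Of 6 measured inhibitors of cyclin-dependent kinases 1 was called, Cdkn2c, which stood at 6.59 in DN3 and 5.46 in ETP (limma adjusted p = 0.04777). All genes called higher there were 2.68%. Of 9 S phase checkpoint genes 0 were called in the 8 comparisons. In the F test 1 of the 9, Rad17, was called, a share near the 12.2% of all genes.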

How the data were processed

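Total RNA was extracted with Trizol, labelled with biotin by an Affymetrix kit for whole transcripts, and 1 array was used per sample, per the labels' protocols. The authors deposited log2 intensities made by RMA, per the submitters' processing notes, which corrects background, normalises quantiles and summarises probe sets; the sources used here give no RMA version, chip definition or build. The deposited values ran from 2.07 to 13.77. Of 35556 probe sets, 21789 carried 1 gene symbol, 1621 several and 12146 none; only the first were used, giving 19938 genes, 999 of them from the brightest of several probe sets. No dim gene was left out.

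Differences were tested with limma 3.58.1 in R 4.3.3 (6 group means, 5 residual and 5.39 prior degrees of freedom), two-sided, in 8 comparisons. An exact permutation test of 2 against 2 arrays cannot go below p = 0.333 and was not used. Promoters were searched in Python 3.11.15 (pandas 2.3.3) and figures drawn in matplotlib 3.10.9. The members and lists were chosen with earlier results of these data known, and so support nothing independently. Per comparison at most 6 called rises and 6 called falls were named, or the 2 largest differences each way where none was called, and from other lists at most 4 called genes; genes given only by level or count fall outside this. Alternatives were a floor of 6 on the mean, quantiles normalised once more, median centring, the mean of probe sets, a robust prior with an intensity trend, the replicate number as a block, a threshold of 0.01, fits of the 2 populations alone, and leaving out each array.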

Additional observations from a re-analysis of the deposited data

How the results depend on the processing

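Of 226 alternatives to the 12 called results (7 genes), 170 remained called, 56 lost the call and 0 reversed. Among members that were not called, Ung in DN2 against ETP changed sides with the scaling. Rrm2 was called in all 19 alternatives in DN3 against ETP (limma adjusted p 0.00106 to 0.0221) and in DN3 against HSC (0.002 to 0.0358). Quantiles normalised once more gave 2 called members in DN2 against ETP (Cdc6 and Rrm2) and 3 in DN3 against ETP; an intensity trend with a robust prior also gave 3 there. At adjusted p under 0.01 the counts were 0 in DN2 against ETP, 1 in DN3 against ETP, 1 in DN3 against HSC and 3 in the F test. In a fit of DN3 and ETP alone 7 members were called, of which only Rrm2 and Tyms were among the 5. Leaving out 1 array at a time gave 0 to 1 members in DN2 against ETP, 1 to 5 in DN3 against ETP, 1 to 8 in DN3 against HSC and 3 to 6 in the F test; LMPP against HSC, CLP against LMPP, ETP against LMPP, ETP against CLP and DN3 against DN2 stayed at 0. With 1 array of a population left out, the spread of the remaining one was borrowed from the others, and DN2 left out gives no value for its own comparisons. The cause of these moves was not tested.

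With the replicate number as a block, 3 members were called in DN3 against ETP (Rrm2, Tyms and Ccne2), since Ccne1 and Prim2 moved to limma adjusted p = 0.0507 and 0.0557. Of 10 pairs of populations 4 had a correlation of deviations over 0.1 across all genes, with a range of -0.258 to 0.283. LMPP, CLP and ETP correlated with each other at 0.11 to 0.283, and HSC was negative with all others. Over the 45 genes the range was -0.719 (HSC and CLP) to 0.578 (LMPP and CLP). Since not every pair was over 0.1, the replicate number was kept out of the main fit. Such a rule cannot decide whether some populations, such as LMPP and CLP, shared a pairing or batch, which was not tested.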
